A study of Mus musculus with 2 samples.

Results

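The proteasome genes of mouse gastrocnemius, a fast calf muscle, were described from long-read RNA sequencing, which reads a transcript as a single molecule. Members were the protein-coding genes of the deposited annotation whose symbol begins with Psm, a letter from a to g and a number. The rule found 50 of the 22028 protein-coding genes. It holds the 14 constitutive core subunits, 3 immune core subunits, 2 tissue-specific core subunits, 17 subunits of the 19S cap, 7 assembly factors, 5 activator genes and the inhibitor Psmf1. It also takes in Psmc3ip, a meiotic recombination factor named for its binding to Psmc3, which is not a proteasome subunit. Another 4 genes with matching symbols are pseudogenes (Psmb5-ps, Psmb6-ps, Psmb6-ps2 and Psmb7-ps2), and none had a read in either library. The samples were 2 libraries from female B6CASTF1/J mice aged 36 days, F1 animals of a cross between C57BL/6J and CAST/EiJ, with 2 µg of RNA per library. They form 1 group, so the libraries were compared with each other and not across conditions. The labels number the females separately but give 1 donor entry, and p-values measure only the difference between these libraries.

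The proteasome is the main protease of the cytosol and nucleus and degrades proteins tagged with ubiquitin. Its 20S core is a barrel of outer alpha rings, which gate the entry, and inner beta rings, of which beta1 (Psmb6), beta2 (Psmb7) and beta5 (Psmb5) cut peptide bonds. The 19S cap binds the ubiquitin chain, removes it and unfolds the substrate with a ring of ATPases, and chaperones put rings and base together. In immune cells and under interferon, Psmb9, Psmb10 and Psmb8 take the place of the catalytic subunits and form the immunoproteasome. In skeletal muscle the proteasome breaks down myofibrillar proteins, and it is best known there for its part in atrophy.

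Annotated mouse genes held 797105 reads in replicate 1 and 1602272 reads in replicate 2. Levels are given as CPM, the counts scaled to a library of these reads, where a single read counts as 1.25 CPM in replicate 1 and as 0.624 CPM in replicate 2. A gene with no read may still stand at up to 3.76 CPM in replicate 1 and up to 1.87 CPM in replicate 2, the level of 3 counts. Since a long read is counted once however long its transcript, CPM was not divided by length, except where stated. The tissue label was checked against 8 fixed skeletal muscle genes such as Acta1 and Ckm, and all 8 were read in both libraries, at a summed 218546 CPM in replicate 1 and 172684 CPM in replicate 2. In bulk tissue, fewer cells of a type and less RNA per cell cannot be told apart.

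Together the 50 genes took 3722 reads in replicate 1 and 9254 reads in replicate 2. This was 0.467% of the gene-assigned reads of replicate 1 and 0.578% of those of replicate 2. The constitutive core and cap subunits lay above all other members in CPM, though at the edge by a narrow margin. The lowest value of the 31 constitutive core and cap subunits was 43.9 CPM, for Psma4 in replicate 1. The highest value of all other members was 43.1 CPM, for Psme2 in replicate 2. These values rest on 35 and 69 reads in different libraries. With annotated models only the order breaks, since Psmc2, a cap subunit, then had no read in either library. For scale, the median of the 8096 genes tested was 17.6 CPM in replicate 1 and 17.5 CPM in replicate 2. By mean CPM the most abundant members were Psmb6 and Psmc3, at ranks 214 and 218 among the 12764 protein-coding genes with a read. Across the 31 core and cap genes the levels of both libraries ranked alike, with a Spearman rho of 0.86 across genes, which share the libraries and are not independent replicates.

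**Figure D1:**
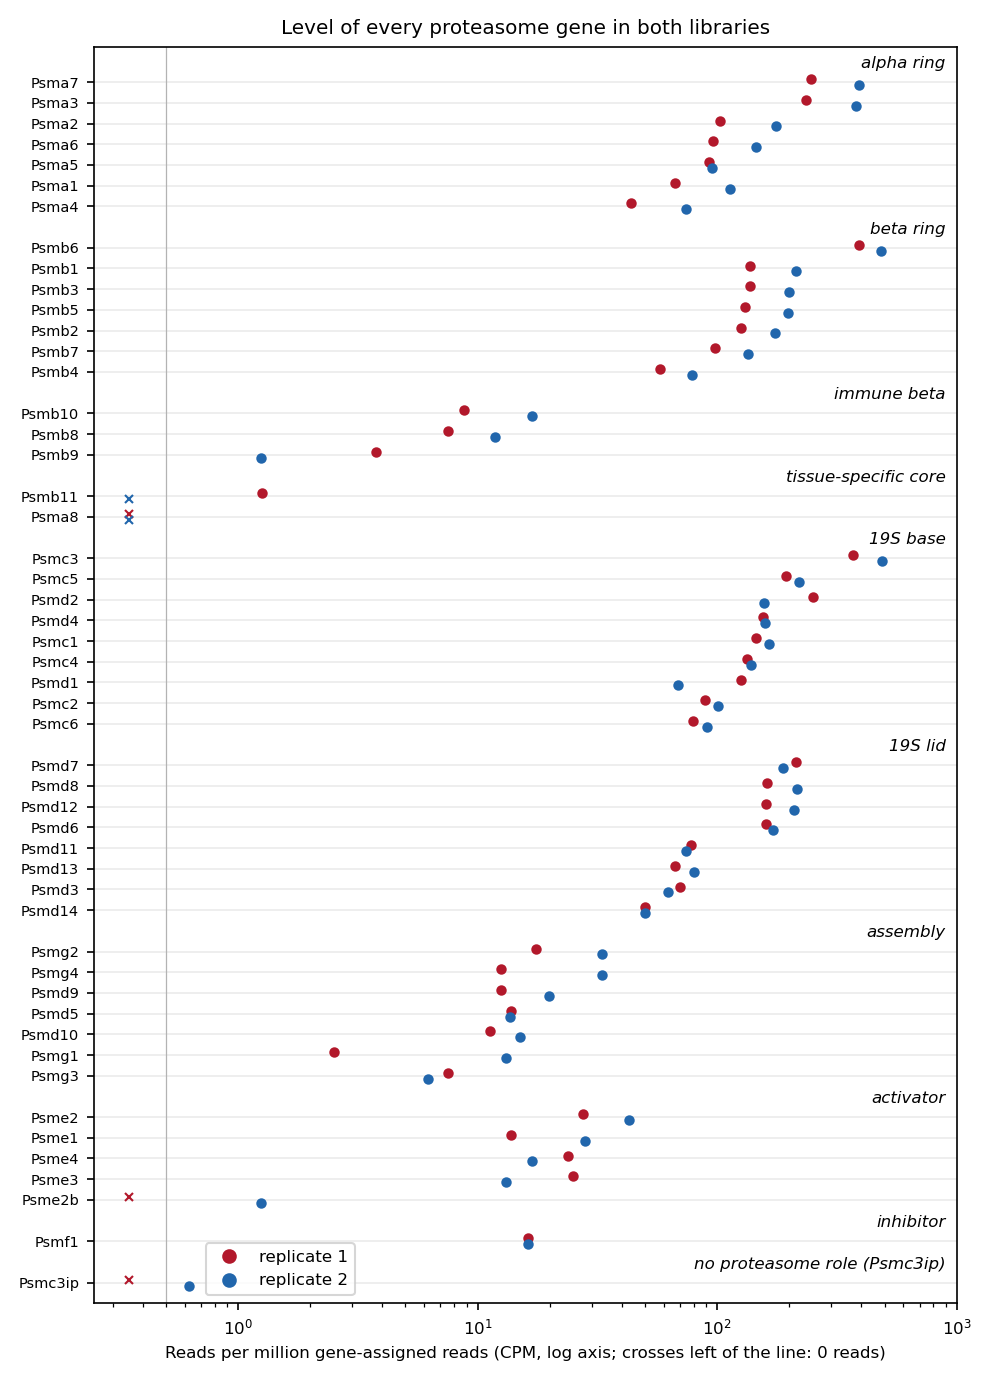
Level of each of the 50 genes in CPM on a log axis, by role, with red points for replicate 1 and blue points for replicate 2, and crosses for a count of 0. No core or cap subunit sits below the 43.9 CPM of Psma4 in replicate 1, and no other member sits above the 43.1 CPM of Psme2 in replicate 2.

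In the alpha ring the 7 genes summed to 883 CPM in replicate 1 and 1376 CPM in replicate 2. Psma7 was the most abundant, with 196 reads (246 CPM) in replicate 1 and 628 reads (392 CPM) in replicate 2. Psma3 followed at 235 CPM in replicate 1 and 379 CPM in replicate 2. Psma4 was the lowest, with 35 reads (43.9 CPM) in replicate 1 and 119 reads (74.3 CPM) in replicate 2. Subunits that enter the finished ring in equal number thus differed up to 5.6-fold in reads within replicate 1 and 5.28-fold within replicate 2. Between these ends lay Psma1 (53 reads in replicate 1 and 181 in replicate 2), Psma2 (82 and 283), Psma5 (74 and 153) and Psma6 (77 and 233). Psma5 was the member of the ring closest between the libraries, at 92.8 CPM in replicate 1 and 95.5 CPM in replicate 2.

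In the beta ring the 7 constitutive genes summed to 1075 CPM in replicate 1 and 1480 CPM in replicate 2. Psmb6, the beta1 subunit that cuts after acidic residues, led with 311 reads (390 CPM) in replicate 1 and 771 reads (481 CPM) in replicate 2. Psmb5, the beta5 subunit with chymotrypsin-like activity, had 104 reads (130 CPM) in replicate 1 and 317 reads (198 CPM) in replicate 2. Psmb7, the beta2 subunit with trypsin-like activity, had 78 reads (97.9 CPM) in replicate 1 and 215 reads (134 CPM) in replicate 2. Of the catalytic subunits Psmb6 was thus highest and Psmb7 lowest in each library. The structural subunits were Psmb1 (109 reads in replicate 1 and 343 in replicate 2), Psmb2 (100 and 280), Psmb3 (109 and 320) and Psmb4 (46 and 126). Psmb4 was the lowest of the ring in both libraries, with 57.7 CPM in replicate 1, against 78.6 CPM in replicate 2.

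The immune catalytic subunits made up a small share of the catalytic reads. Psmb9 (chr17:34181987-34187764, minus strand), the immune beta1, had 3 reads in replicate 1 and 2 reads in replicate 2. Against Psmb6 (chr11:70525367-70527858, plus strand) this is 0.955% of 314 reads in replicate 1 (exact Clopper-Pearson 95% interval 0.197 to 2.77%) and 0.259% of 773 reads in replicate 2 (0.0313 to 0.931%). Psmb10 (chr8:105935735-105938444, minus strand), the immune beta2, had 7 reads in replicate 1 and 27 reads in replicate 2. Against Psmb7 (chr2:38588036-38644087, minus strand) this is 8.24% of 85 reads in replicate 1 (3.38 to 16.2%) and 11.2% of 242 reads in replicate 2 (7.48 to 15.8%). Psmb8 (chr17:34197721-34201454, plus strand), the immune beta5, had 6 reads in replicate 1 and 19 reads in replicate 2. Against Psmb5 (chr14:54614119-54618022, minus strand) this is 5.45% of 110 reads in replicate 1 (2.03 to 11.5%) and 5.65% of 336 reads in replicate 2 (3.44 to 8.69%). Immune subunits over all 3 pairs gave 3.14% of 509 reads in replicate 1 (1.81 to 5.05%) and 3.55% of 1351 reads in replicate 2 (2.63 to 4.68%), a mean of 3.35 ± 0.29% (SD, n = 2). The intervals of the libraries overlapped for every pair and cover counting error only.

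The immune fraction was lower in the Psmb9 pair than in the Psmb10 pair in both libraries, with exact intervals that did not overlap. Each fraction also depends on the level of the constitutive partner. Psmb6 was the highest of these partners, at 390 CPM in replicate 1 and 481 CPM in replicate 2. In replicate 2 the interval of the Psmb9 share ended below the intervals of the Psmb10 and Psmb8 shares, while those of Psmb10 and Psmb8 overlapped. In replicate 1 the interval of the Psmb9 share overlapped that of the Psmb8 share and ended below that of the Psmb10 share. Of the 19 Psmb8 reads of replicate 2, 13 belonged to a single-exon model (chr17:34201266-34201454) in the 3′ untranslated part of the last exon, and 1 of the 6 reads of replicate 1 lay in a model there too. With annotated (Known) models only, Psmb8 had 5 reads in each library, 4.85% of the pair in replicate 1 (1.59 to 10.97%) and 1.68% in replicate 2 (0.547 to 3.87%). In replicate 2 the Psmb9 interval (0.00337 to 0.739%) then overlapped that of Psmb8, so their separation was lost, while the Psmb10 interval (8.95 to 19.02%) lay above both. Without ISM (incomplete) and Genomic models the replicate 2 intervals stood in the same way. Markers of immune cells were read as well. The 3 immune subunits summed to 16 reads in replicate 1 and 48 in replicate 2, while the marker list holds more genes, so the sums were not ranked. The 15 listed marker genes summed to 54 reads (67.7 CPM) in replicate 1 and 145 reads (90.5 CPM) in replicate 2. Cd74 had 14 reads in replicate 1 and 31 in replicate 2, while Lyz2 had 13 and 36. Ptprc, which marks all leukocytes, had 0 reads in replicate 1 and 2 in replicate 2. The T cell gene Cd3e had 0 in both. Replicate 1 also listed Cd68, Itgam and Cd79a at 0. The part of these cells in the immune subunit reads was not tested.

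**Figure D2:**
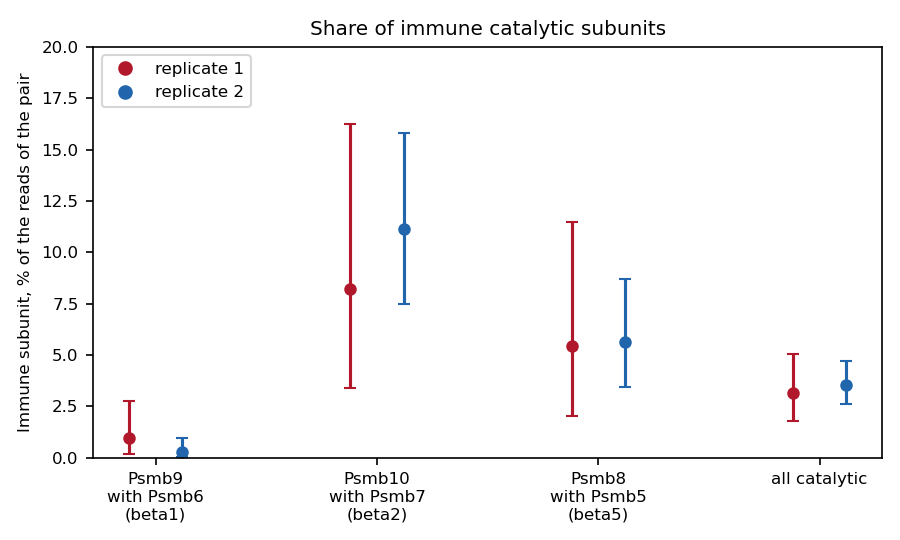
Reads of the immune subunit as a percentage of the reads of each catalytic pair and of all 3 pairs, with exact 95% intervals of counting error, for replicate 1 (red, left) and replicate 2 (blue, right). The Psmb9 share is lowest in both libraries, at 0.955% and 0.259%, and the share over all pairs lies at 3.14% and 3.55%.

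Genes that work beside the immunoproteasome in peptide presentation were read at low to moderate levels. Of 12 listed genes, each library held reads of 10, and 8 reached the 10 summed reads needed for a test. Tap1, which lies head to head with Psmb9 on chr17 and carries peptides into the endoplasmic reticulum, had 2 reads in replicate 1 and 0 in replicate 2. Nlrc5, an activator of class I genes, had 0 reads in both libraries. B2m, the light chain of class I molecules, had 30 reads in replicate 1 and 67 in replicate 2. H2-D1, a class I heavy chain, had 78 reads (97.9 CPM) in replicate 1 and 75 reads (46.8 CPM) in replicate 2, and was 1 of the 8 genes tested that was called higher in replicate 1 (Fisher's exact test, adjusted p under 0.05 and at least 2-fold), where 5.47% of all 8096 genes tested were.

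The tissue-specific core subunits gave no read in their own exons. Psma8, the testis form of an alpha subunit, had 0 reads in both libraries. Psmb11, the thymus beta subunit, was credited with 1 read in replicate 1 and 0 in replicate 2. That read belonged to a model of 2 exons on the plus strand of chr14 (54614119 to 54663124), whose first exon lies over the opposite strand of Psmb5. Psmc3ip had 0 reads in replicate 1 and 1 in replicate 2.

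In the base of the cap the 9 genes summed to 1544 CPM in replicate 1 and 1587 CPM in replicate 2. Psmc3, an ATPase of the ring, led with 295 reads (370 CPM) in replicate 1 and 780 reads (487 CPM) in replicate 2. Psmc6, another of its ATPases, was lowest by mean, with 63 reads (79.0 CPM) in replicate 1 and 145 reads (90.5 CPM) in replicate 2. The other ATPases were Psmc1 (116 reads in replicate 1 and 265 in replicate 2), Psmc2 (71 and 161), Psmc4 (106 and 223) and Psmc5 (155 and 352). All 6 ATPases had fewer CPM in replicate 1 than in replicate 2. With Atp2a1, the muscle calcium pump, left out of the library totals, 5 of 6 did. Without the models classed as ISM (incomplete splice matches) or Genomic 5 of 6 did, and with annotated models only 3 of 6. Psmc2 had no read in annotated models, so it could not be compared there. Without ISM and Genomic models it kept 2 reads in replicate 1 and 1 in replicate 2. Psmc3 alone of the ATPases had an adjusted p under 0.05. The scaffold subunits stood the other way. Psmd1 had 100 reads (125 CPM) in replicate 1 and 110 reads (68.7 CPM) in replicate 2, and Psmd2 had 201 reads (252 CPM) and 251 reads (157 CPM). Psmd4, a ubiquitin receptor, had 124 reads (156 CPM) in replicate 1 and 255 reads (159 CPM) in replicate 2.

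In the lid the 8 genes summed to 961 CPM in replicate 1 and 1050 CPM in replicate 2. Psmd7, the partner of the deubiquitinase, was highest by mean, with 171 reads (215 CPM) in replicate 1 and 301 reads (188 CPM) in replicate 2. Psmd14, the deubiquitinase that takes the ubiquitin chain off the substrate, was lowest in both libraries and nearly equal between them, with 40 reads (50.2 CPM) in replicate 1 and 80 reads (49.9 CPM) in replicate 2. The others were Psmd3 (56 reads in replicate 1 and 100 in replicate 2), Psmd6 (127 and 275), Psmd8 (129 and 344), Psmd11 (62 and 119), Psmd12 (128 and 335) and Psmd13 (53 and 128).

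Core and cap were set against each other in each library. The 14 core genes had a median of 114 CPM in replicate 1, against 146 CPM for the 17 cap genes. In replicate 2 the core median was 176 CPM, against 157 CPM for the cap. The ratio of the medians, core over cap, was 0.784 in replicate 1 and 1.12 in replicate 2, a mean of 0.953 ± 0.238 (SD, n = 2). By median CPM the core was thus lower than the cap in replicate 1 and higher in replicate 2. Per kilobase of the longest annotated coding transcript the core was higher in both, with a ratio of medians of 1.02 in replicate 1 and 1.37 in replicate 2. The ratio of means per kilobase was 1.55 in replicate 1 and 2.03 in replicate 2. Summed levels of the core were 1958 CPM in replicate 1 and 2856 CPM in replicate 2, and those of the cap 2505 CPM and 2636 CPM. The core sums thus spread more between the libraries (2407 ± 635 CPM, SD, n = 2) than the cap sums did (2571 ± 92.6 CPM).

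Assembly factors were far less abundant than the subunits they place. The 7 genes summed to 62 reads (77.8 CPM) in replicate 1 and 215 reads (134 CPM) in replicate 2. Psmg2, part of the alpha ring chaperone PAC1-PAC2, was highest by mean, with 14 reads (17.6 CPM) in replicate 1 and 53 reads (33.1 CPM) in replicate 2. Its partner Psmg1 had 2 reads (2.51 CPM) in replicate 1 and 21 reads (13.1 CPM) in replicate 2. Psmg3 was lowest by mean, with 6 reads (7.53 CPM) and 10 reads (6.24 CPM), while its partner Psmg4 had 10 reads (12.5 CPM) and 53 reads (33.1 CPM). The base chaperones were Psmd5 (11 reads in replicate 1 and 22 in replicate 2), Psmd9 (10 and 32) and Psmd10 (9 and 24). Pomp, the maturation factor of the beta ring and no Psm gene by name, was in the range of the core subunits, at 167 CPM in replicate 1 and 271 CPM in replicate 2.

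Among activators, Psme1 and Psme2, which form the interferon-inducible PA28 ring, had 11 and 22 reads in replicate 1 and 45 and 69 reads in replicate 2. Psme2 was the highest of the group by mean, at 27.6 CPM in replicate 1 and 43.1 CPM in replicate 2. Psme3, the nuclear PA28 gamma, had 20 reads in replicate 1 and 21 in replicate 2. Psme4, the large activator PA200, had 19 reads in replicate 1 and 27 in replicate 2. Psme2b, a near copy of Psme2, had 0 reads in replicate 1 and 2 in replicate 2. Psme2 holds 79.5% of the 25-base words of its longest transcript, so reads could be split between this pair. The inhibitor Psmf1 had 13 reads (16.3 CPM) in replicate 1 and 26 reads (16.2 CPM) in replicate 2.

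The libraries were then compared gene by gene by two-sided Fisher's exact tests, with Benjamini-Hochberg adjustment over all 8096 genes with at least 10 reads summed. Genes were called at an adjusted p under 0.05 and a difference of 2-fold or more. Of the 50 members, 45 were tested, 0 were called higher in replicate 1 and 1 was called lower. Over all genes tested, 5.47% were called higher in replicate 1 and 5.78% were called lower. The called member was Psmg4, whose 10 reads against 53 gave a ratio of 0.379, replicate 1 over replicate 2 (interval 0.172 to 0.753, adjusted p = 0.019). Psmg1 had the lowest ratio, 0.191 (0.0218 to 0.783), and missed the threshold with an adjusted p of 0.060. It passed, at an adjusted p under 0.05, with TMM factors, with at least 20 summed reads or without ISM and Genomic models.

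All 14 core genes had fewer CPM in replicate 1, or 13 of 14 with Atp2a1 out of the totals or with annotated models only. Their median log2 ratio was -0.60, with a range of -0.78 to -0.04. By the adjusted p alone, with no fold minimum, 11 of the 14 were lower in replicate 1, the exceptions being Psma5, Psmb4 and Psmb7. Over all genes tested, that rule gave 12.0% lower and 8.31% higher in replicate 1, and 51.5% of all genes had fewer CPM in replicate 1. Core medians were 114 CPM in replicate 1 and 176 CPM in replicate 2, against 17.6 and 17.5 CPM over all genes tested. Smaller differences can thus pass in core genes, so the shares by adjusted p are not like for like. Psma2 had the lowest ratio of the core, 0.582 (0.45 to 0.747), from 103 CPM in replicate 1 and 177 CPM in replicate 2. In the cap, 11 of 17 genes had fewer CPM in replicate 1, or 8 of 17 with Atp2a1 out of the totals and 7 of 17 with annotated models only. Psmc2, a cap gene, had no read in annotated models and could not be compared in that setting. The cap median log2 ratio was -0.11, or 0.02 and 0.06 under those alternatives. There the adjusted p alone gave 2 lower genes, Psmc3 and Psmd8, and 2 higher genes, Psmd1 and Psmd2. Psmd1 had a ratio of 1.83 (1.38 to 2.42, adjusted p = 0.00023) and Psmd2 of 1.61 (1.33 to 1.95). The median log2 ratio of all genes was -0.06. When Atp2a1 was left out of the library totals, that median was 0.07 and the core median was -0.47. Markers of other cell types differed between the same libraries too. The 5 listed fibroblast genes were all read in both and summed to 930 CPM in replicate 1 and 617 CPM in replicate 2, with Col3a1 called higher in replicate 1 (381 CPM, against 182 CPM). The 9 endothelial genes, also all read in both, summed to 144 CPM in replicate 1 and 157 CPM in replicate 2, and 0 of the 8 tested were called. Of the 7 immune cell genes tested C1qc was called lower in replicate 1 (2 reads, against 22 in replicate 2). The part of these cells in the core and cap values was not tested.

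The differences moved with transcript length. By the longest annotated coding transcript, core genes had a median of 1162.5 bases and cap genes of 1819 bases. Among the 1356 genes tested with transcripts of up to 1500 bases, the median log2 ratio was -0.54 and 83.4% had fewer CPM in replicate 1. The 11 core genes of that length had a median of -0.55, and the 3 cap genes of -0.11. Psmg4, the member called lower in replicate 1, also fell in that range and had the shortest such transcript of the members, at 555 bases. Psmg1 fell there too, at 1044 bases. Among the 1837 genes over 1500 and up to 2500 bases the median was -0.13, and the 11 cap genes of that length had a median of -0.18. These include Psmd4 and Psmd8, at 1756 and 1983 bases. Their leading transcripts, of 1332 and 1391 bases, would fall in the shorter range. Among the 4408 longer genes the median was 0.25. The 3 longer cap genes, Psmd1, Psmd2 and Psmd11, had a median of 0.69, while the 2 longer core genes, Psma2 and Psma3, had a median of -0.74. Across the 45 members tested longer transcripts had higher log2 ratios, with a Spearman rho of 0.49, and across all 7601 genes with a coding transcript rho was 0.36. These are relations across genes that share both libraries. The part of length in the core, cap, Psmg4 and Psmg1 values was not tested.

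**Figure D3:**
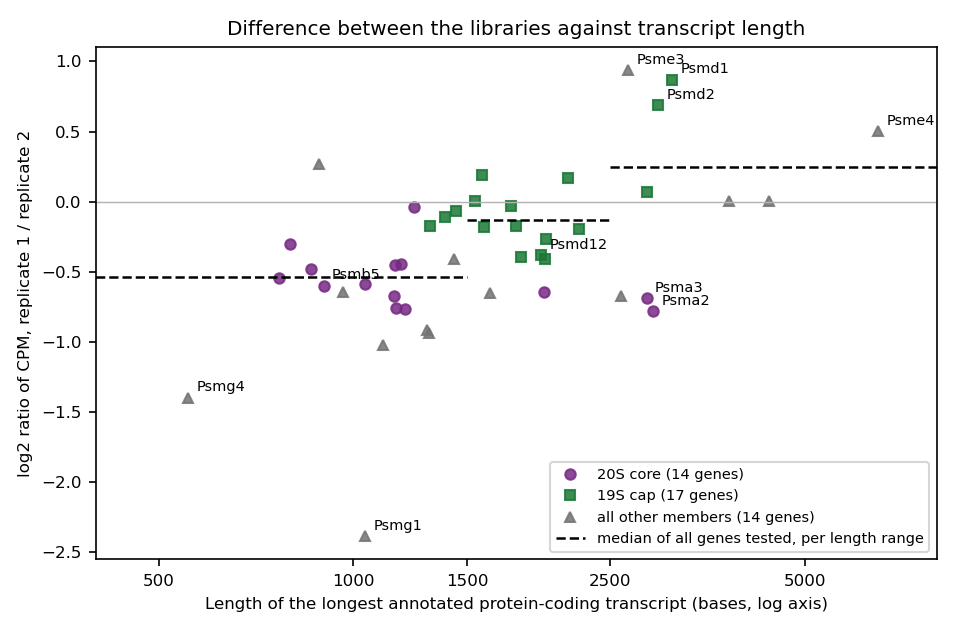
log2 ratio of CPM, replicate 1 over replicate 2, against the length of the longest annotated protein-coding transcript in bases (log axis) for the 45 members tested, with core genes as circles, cap genes as squares and other members as triangles. Dashed lines give the median of all genes tested in each length range, at -0.54, -0.13 and 0.25. Most core genes lie at the short, negative end, but Psma2 and Psma3 are long and negative. Psmd1, Psmd2, Psme3 and Psme4 are among those at the long, positive end.

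Genes that serve the proteasome without a Psm name showed both kinds of difference. Of 28 listed genes, 27 were matched, 26 were tested, 5 were called higher in replicate 1 and 0 lower, beside 5.47% higher and 5.78% lower over all genes tested. Those described here are Vcp, the segregase that pulls substrates from complexes (349 CPM in replicate 1, against 165 CPM in replicate 2), the ubiquitin-activating enzyme Uba1 (96.6 and 46.2 CPM), the shuttle factor Rad23b (38.9 and 19.3 CPM) and the adaptor Ecpas (132 and 52.4 CPM). Of the small proteins, Sem1, the smallest subunit of the lid, had 242 CPM in replicate 1, against 389 CPM in replicate 2, with a ratio of 0.622. Pomp had a ratio of 0.615. Both lay near the core genes in level and ratio. Adrm1, a ubiquitin receptor of the cap, had 129 CPM in replicate 1 and 137 CPM in replicate 2. Nfe2l1, the transcription factor that induces proteasome genes when activity falls short, had 178 CPM in replicate 1 and 124 CPM in replicate 2. Its relative Nfe2l2 had 20.1 and 19.3 CPM.

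Most members were read as 1 annotated transcript. TALON, the program that named the models, classed 83.9% of the members' reads in replicate 1 and 78.8% in replicate 2 as Known. Over all annotated genes the shares were 66.6% and 67.6%. Incomplete splice matches (ISM), which hold a consecutive part of an annotated intron chain, took 12.2% of members' reads in replicate 1 and 15.5% in replicate 2. Unannotated splice forms (NIC, new combinations of known sites, and NNC, with a new site) took 2.39% in replicate 1 and 2.54% in replicate 2, against 18.0% and 8.59% over all annotated genes. All of these are shares of reads and not of genes, so the most read genes weigh most in the values over all genes. The 8 listed skeletal muscle genes alone held 174204 reads in replicate 1 and 276687 in replicate 2. In the 33 members with at least 20 reads in each library, the leading transcript was the same in both libraries for all 33, against 2745 of 3204 genes (85.7%). Its median share was 89.0% in replicate 1 and 82.1% in replicate 2, against 76.9% and 73.0% over the 3204 genes. Read depth was not matched between the members and those genes, so the shares are not like for like. Psmb2-201 took 99.0% and 94.3% of its gene's reads, and Psmd4-202, the leading transcript with the lowest share, took 50.8% and 43.5%.

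The share of the leading transcript was called different in 3 members, all higher in replicate 1, by two-sided Fisher's exact tests adjusted over 3204 genes and with a minimum difference of 10 percentage points. Over all genes tested, 7.62% were called higher in replicate 1 and 8.21% lower. Psmc3-202 took 217 of 295 reads in replicate 1 (73.6%, interval 68.1 to 78.5%) and 402 of 780 in replicate 2 (51.5%, 48.0 to 55.1%; adjusted p = 1.2e-09). Psmd2-201 took 83.1% in replicate 1 and 68.5% in replicate 2 (adjusted p = 0.0044), and Psma4-201 took 82.9% and 56.3% (adjusted p = 0.032). In each of them the next most read form over both libraries was a single-exon ISM model over the last exon. For Psmc3 it was a model of 181 bases (chr2:91059254-91059434, plus strand) with 69 reads in replicate 1 and 342 in replicate 2. For Psmd2 it had 22 and 51 reads, and for Psma4 it had 2 and 26. Without ISM and Genomic models 0 of 31 members were called by the same exact test, and over all 2518 genes then tested 0.794% were called in either direction.

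**Figure D4:**
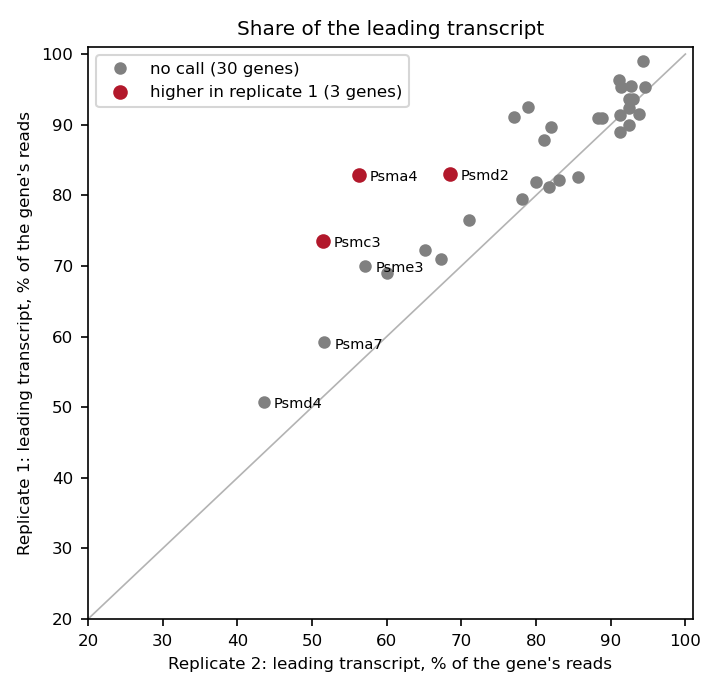
Share of each gene's reads taken by its leading transcript in replicate 1 (vertical) against replicate 2 (horizontal) for 33 members, with the diagonal of equal shares. Psma4, Psmc3 and Psmd2, in red, were called higher in replicate 1 and lie above the diagonal, and Psmd4 lies lowest.

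Several members were read mainly or largely as incomplete forms. Psmc2 had no Known read in either library. Its leading model, with 65 reads in replicate 1 and 151 in replicate 2, had 12 of the 13 exons of Psmc2-201 and lacked the first, untranslated exon (chr5:21785283-21785517, plus strand). The coding sequence starts in the second exon (chr5:21786650-21786884), which the model holds. Psma7 was read as a model of its last 4 exons in 76 of 196 reads in replicate 1 (38.8%) and 283 of 628 in replicate 2 (45.1%). Psme4, with the longest transcript of the members at 6491 bases, had 1 Known read in each library, against 15 ISM reads in replicate 1 and 26 in replicate 2. In Psma3, 23 reads of replicate 1 and 148 of replicate 2 were assigned to a Genomic model that each file lists with a length of 1 base, in the untranslated part of the last exon (chr12:70994351-70996347, plus strand). Psmb6-202, annotated as a retained intron form, held 66 reads in replicate 1 (21.2%) and 203 in replicate 2 (26.3%). Its only intron is also the last intron of Psmb6-201, so reads of this form and short reads of the coding form cannot be told apart here.

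Copies of members elsewhere in the genome were counted too. Of the 50 members, 14 shared at least 10% of the 25-base words of their longest coding transcript with transcripts of another gene, 27 other genes in all, and 7 of these had a read. Besides Psme2 itself, 1 of the 7 had at least 10 reads summed, the processed pseudogene Gm13835. It holds 22.8% of the words of Psma3 and had 2 reads in replicate 1 and 24 in replicate 2.

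Alternative splice choices were sought at introns of members that share 1 splice site, and 5 genes had a second choice with enough reads to describe. Psmd4, the ubiquitin receptor, often used either of 2 neighbouring donor sites at the end of its seventh exon. The form with the longer seventh exon, Psmd4-201, keeps 9 coding bases (chr3:95033909-95033917, minus strand), which Psmd4-202 lacks. Both are shown 5′ to 3′ as transcript sequence of GENCODE M21 (GRCm38), with the 9 bases in capitals, since they are the whole difference at this junction.
Psmd4-201: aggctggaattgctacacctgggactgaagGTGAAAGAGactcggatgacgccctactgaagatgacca
Psmd4-202: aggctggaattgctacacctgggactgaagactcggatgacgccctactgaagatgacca
The 9 bases make 3 codons and keep the frame. They were kept in 47 of 117 reads over this junction in replicate 1 (40.2%, interval 31.2 to 49.6%) and in 97 of 215 in replicate 2 (45.1%, 38.3 to 52.0%). The intervals of the libraries overlapped, and the difference between them at this junction was not tested.

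Psmg4, the assembly factor called lower in replicate 1, was read with and without its second exon of 76 bases (chr13:34166061-34166136, plus strand), which is coding in Psmg4-202 and absent from Psmg4-201. The exon stands in capitals in the longer sequence.
Psmg4-202: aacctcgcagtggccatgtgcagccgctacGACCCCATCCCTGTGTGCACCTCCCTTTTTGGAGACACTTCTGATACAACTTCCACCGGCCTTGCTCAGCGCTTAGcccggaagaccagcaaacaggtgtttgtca
Psmg4-201: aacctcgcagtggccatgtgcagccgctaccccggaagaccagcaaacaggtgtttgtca
Since 76 is not a multiple of 3, the frame after the exon differs, and the annotated coding length is 369 bases with it and 246 bases without it. The exon was kept in 5 of 10 reads in replicate 1 (interval 18.7 to 81.3%) and in 35 of 53 in replicate 2 (66.0%, 51.7 to 78.5%).

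Psmd8, a lid subunit, carried the most read unannotated splice form of the members. Of 187 NIC or NNC models of the 50 genes, 2 had at least 10 reads summed and 14 were seen in both libraries. The Psmd8 model joined the end of the first exon (chr7:29180277, minus strand) to a site 34 bases inside exon 4 (chr7:29177197). It skipped the second exon of 73 bases, the third of 103 bases and those 34 bases, 210 coding bases or 70 codons in all, of a coding length of 867 bases. Both joins are shown with the annotated sequence before the new site, where capitals mark the last 2 skipped bases.
annotated join: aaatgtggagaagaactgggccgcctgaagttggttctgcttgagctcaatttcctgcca
unannotated join: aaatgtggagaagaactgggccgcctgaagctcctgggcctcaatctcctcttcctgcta
exon 4 around the new site: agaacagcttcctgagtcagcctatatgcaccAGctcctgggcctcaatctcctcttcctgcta
The last 2 skipped bases are AG, the usual end of an intron, and the same 2 bases end the first exon, so the join could lie up to 2 bases earlier with the same sequence. The join was used in 18 of 126 reads with this donor in replicate 1 (14.3%, interval 8.69 to 21.6%) and in 32 of 320 in replicate 2 (interval 6.94 to 13.8%). It was seen in both libraries and its intervals overlapped.

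The other choices were minor. In Psma4 an untranslated exon of 85 bases (chr9:54951344-54951428, plus strand) was kept in 2 of 32 reads with this donor in replicate 1 (6.25%, 0.766 to 20.8%) and in 12 of 83 in replicate 2 (14.5%, 7.70 to 23.9%). These counts equal those of a NIC model of 10 exons, the second unannotated form with at least 10 reads summed. In Psma3 an acceptor 5 bases later, which gives the form annotated for nonsense-mediated decay, was used in 12 of 158 reads in replicate 1 (7.59%, 3.99 to 12.9%) and in 24 of 439 in replicate 2 (5.47%, 3.53 to 8.03%).

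**Figure D5:**
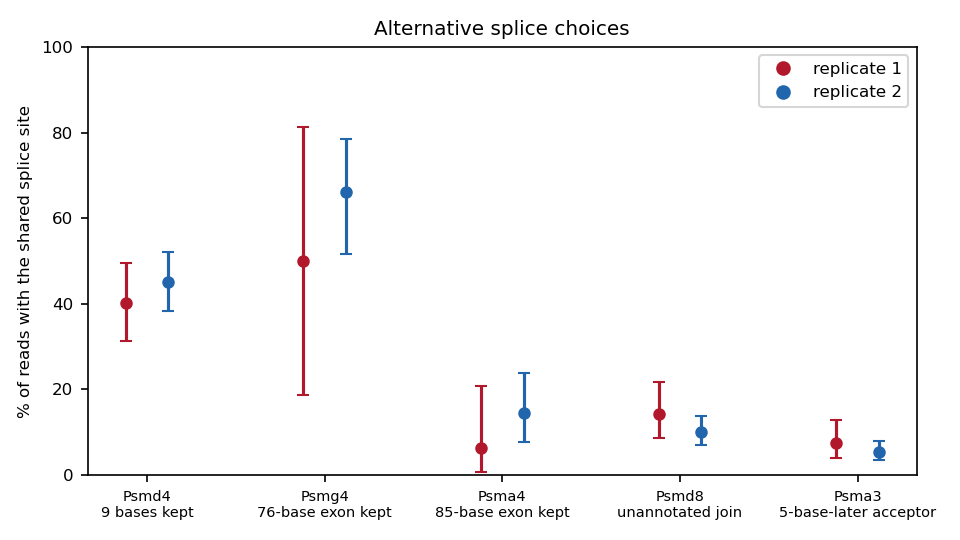
Percentage of reads with the shared splice site that used the named choice, with exact 95% intervals, for replicate 1 (red, left) and replicate 2 (blue, right). Psmd4 and Psmg4 split their reads between forms, and the choices in Psma4, Psmd8 and Psma3 stay at or below 14.5%.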

How the data were processed

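For each library the authors deposited unnormalized counts of reads for every transcript model, as whole numbers, together with a GTF of the models. The deposited files name the mm10 genome, GENCODE M21 and TALON's classes. The aligner, the read correction, tool versions and whether counting used strand remain not given in the sources used here. Tables list models with at least 1 read. Counts were summed per gene over all classes and scaled to reads in annotated mouse genes, without spike-ins, antisense and intergenic loci. Models were matched between libraries by annotated transcript or intron chain. A single group leaves a count model no residual degrees of freedom, so Fisher's exact test on reads compared the libraries, and edgeR 4.0.16 and DESeq2 1.42.0 (R 4.3.3) gave other scalings only. Exact 95% intervals, and the limit of 3 counts for a count of 0, reflect counting error alone and take each read as independent. PCR copies were not marked with molecular identifiers, so the intervals and exact tests may understate even that error. Shares of 25-base words came from M21 transcripts, and gene coordinates from M21, since deposited gene spans are extended by reads.

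Members, gene lists and tests were chosen with earlier results of these data known. Every member is named. Values are given in full for the catalytic pairs, the highest and lowest gene of each role, called members and those with no read. Transcripts named are leading ones with at least 20 reads in each library, and unannotated ones with at least 10 reads summed. Members named beyond this were chosen after their values were seen. Of the pathway list, Paaf1 was not matched, and the values of 1 called gene are not reported here. Both tests were tested on simulated counts. Scripts ran in Python 3.11.15 with scipy 1.17.1, numpy 2.4.6 and pandas 2.3.3.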

Additional observations from a re-analysis of the deposited data

Results flagged for a closer look

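Reads in models that TALON placed on the opposite strand of a member, as antisense loci, entered no comparison above. They were found at 9 of the 50 genes in replicate 1 (41 reads) and at 23 in replicate 2 (265 reads), and 97.7% of them were in single-exon models. At 5 genes they passed, in both libraries, the 3 reads that a count of 0 allows. At Psmd11, a lid subunit, the opposite strand had 12 reads in replicate 1 and 76 in replicate 2, beside 62 and 119 sense reads. At Psme4, the PA200 activator, it had 5 reads in replicate 1 and 56 in replicate 2, beside 19 and 27 sense reads, so in replicate 2 it outnumbered them. At Psmd2 replicate 1 had 7 such reads and replicate 2 had 25, and at Psmc2 they had 4 and 18. At Psma3 it had 5 reads in replicate 1 and 4 in replicate 2, where the annotated gene 3110056K07Rik also lies on the opposite strand. Why the opposite strand was read was not tested.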

How the results depend on the processing

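No paired analysis was possible because both libraries belong to 1 group and no other group shares their replicate numbers. With annotated models only, the immune share was 2.65% and the cap sum 3012 CPM. Then 1 of 43 members tested, Psmd1, was called higher in replicate 1, against 0 before. Over all genes, 587 of 5733 were called higher in that setting. Without ISM and Genomic models the immune share was 2.72% and the activator sum 86.6 CPM. Of 43 members tested, 2 (Psmg1 and Psmg4) were then called lower in replicate 1, beside 449 of all 6508 genes. For leading transcripts 0 of 31 were called, against 0.794% over all genes. With Atp2a1 out of the totals the cap sum was 2767 CPM. In separate settings, with Atp2a1 kept, the ratio of core to cap per kilobase was 1.19 by medians and 1.79 by means. The ratio by means was chosen after seeing the data. With TMM factors 2 of 45 members (Psmg1 and Psmg4) were called lower in replicate 1, beside 537 of all 8096 genes. With at least 20 summed reads the same 2 of 44 were, beside 461 of all 6119 genes. With no fold minimum 2 of 45 members were called higher and 14 lower, beside 673 and 973 of all 8096 genes. Single libraries gave immune shares of 3.14 to 3.55%, core sums of 1958 to 2856 CPM, cap sums of 2505 to 2636 CPM, ratios of core to cap of 0.784 to 1.12, assembly sums of 77.8 to 134 CPM and activator sums of 90.3 to 102 CPM. The Psmg4 log2 ratio lay between -1.55 and -1.27 in the alternatives run and stayed called. The median log2 ratio of all genes tested moved to 0.08 with annotated models only and to 0.07 without Atp2a1, and 13 of 14 core genes then had fewer CPM in replicate 1. With few reads per gene, depth limits the immune subunits, assembly factors and activators: 5 of the 50 members could not be tested, and the cause of the difference between the libraries was not tested.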
